A study of Mus musculus with 18 samples.

Results

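The complement components outside C1q that are described here are 8 genes, chosen by name: *C2*, *Cfb*, *C4b*, *C3*, *Hc* (which encodes C5), *Serping1*, *C3ar1*, and *C5ar1*. They are 8 of the 20878 genes whose RNA was measured by sequencing in 18 tumors. The tumors grew under the skin from grafts of K7M2, a mouse osteosarcoma line of Balb/c origin, in female mice injected at 6 to 8 weeks of age with 500000 cells each. The hosts were Balb/c mice (Balb/cJ), which are syngeneic and immunocompetent, or NSG mice (NOD.Cg-Prkdc scid Il2rg tm1Wjl/SzJ), which lack T, B, and NK cells but keep macrophages and neutrophils. The grafted cells carried a control shRNA (ATRX CT) or an shRNA against *Atrx* (ATRX KD), both delivered by lentivirus. Balb/c mice gave 4 tumors of each kind of cells and NSG mice 5 of each, every tumor from another animal. Cages of 5 mice were assigned whole to one kind of cells, and no cage is given per tumor, so cage and shRNA cannot be told apart. NSG differs from Balb/c in its NOD background as well as in lymphocytes, so strain and immune status cannot be told apart either.

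Complement is a cascade of plasma and tissue proteins that marks targets for uptake or lysis. C1q starts the classical pathway, in which C4 and C2 form the enzyme that cleaves C3. Factor B (Cfb) forms the corresponding enzyme of the alternative pathway. Cleavage of C3 and C5 releases the peptides C3a and C5a, whose receptors C3ar1 and C5ar1 sit mainly on myeloid cells, while Serping1 (C1 inhibitor) blocks the proteases that start the classical pathway. The liver makes most of the circulating proteins, and macrophages, fibroblasts, and endothelial cells make them locally.

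Values are FPKM, fragments scaled to transcript length and library size, recovered from the deposited log2 (FPKM + 1). By estimate, the libraries held 15150000 to 25200000 fragments, and 16108 to 18212 genes were above 0 per tumor. *Atrx*, the target of the shRNA, was at 7.88 to 21.5 FPKM in ATRX KD and 10.3 to 26.0 in ATRX CT tumors of Balb/c mice (log2 difference −0.34, SE 0.36, adjusted p = 0.999). In NSG mice it was at 8.42 to 16.4 against 11.6 to 24.4 FPKM (log2 difference −0.74, SE 0.22, adjusted p = 0.061), so *Atrx* RNA alone did not separate the groups in either host. Tumor RNA also holds RNA of host cells, and the authors reported loss of ATRX protein in the K7M2 line by western blot. The summed FPKM of 7 T cell genes was 20.1 to 40.4 in Balb/c and 1.06 to 6.17 in NSG tumors. The 8 osteoblast genes summed to 511 to 1018 FPKM in all tumors, and 8 hepatocyte genes to at most 0.433, with *Apoa2* and *Fga* at 0 in all Balb/c ATRX CT tumors. Of the osteoblast genes, *Bglap* was at 0 in all Balb/c ATRX CT tumors and *Ibsp* in all ATRX KD tumors of both hosts. Keratinocyte genes summed to 83.7 FPKM in Balb/c ATRX CT mouse 45 and 13.9 in Balb/c ATRX KD mouse 60, against 1.41 to 2.35 in the other Balb/c tumors. In NSG mice they summed to 1.24 to 5.80 FPKM in ATRX CT and 1.43 to 16.2 in ATRX KD tumors.

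The members covered a wide range of levels. By mean over the 18 tumors, *C3ar1* was highest at 64.7 FPKM, followed by *Cfb* at 51.8, *C4b* at 38.4, *C5ar1* at 33.8, *C3* at 24.4, *Serping1* at 12.9, *C2* at 1.67, and *Hc* at 0.0182. Neighbours in this order overlapped in their ranges over the tumors, with the exception of *C2*, never under 0.609 FPKM, and *Hc*, never over 0.105. *C3ar1* ranked above 92.7% of all genes by its mean, *C2* above 44.9%. From lowest to highest tumor, *C3ar1* varied 1.78-fold, *C5ar1* 2.67-fold, *Cfb* 2.70-fold, *C4b* 4.07-fold, *C3* 5.36-fold, *C2* 7.32-fold, and *Serping1* 9.53-fold. By this ratio, which rests on the lowest and highest tumor alone, the receptors and *Cfb* varied least and the inhibitor most. *Hc*, listed at 0 in 6 tumors, has no such ratio.

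**Figure D1:**
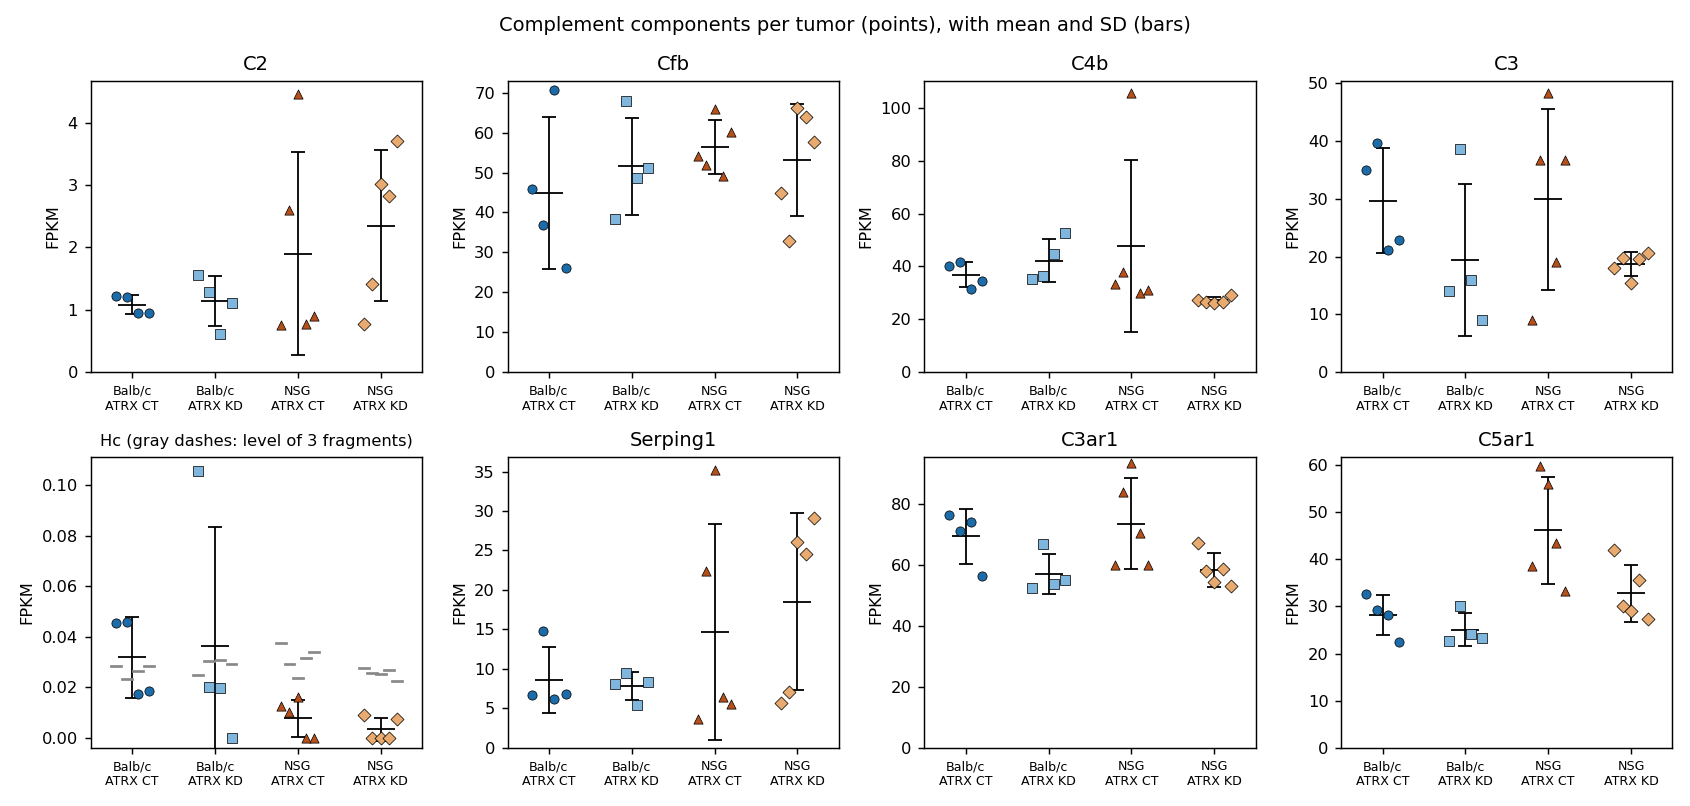
Level of each member in FPKM (vertical axes, starting at or near 0) in every tumor, by host and shRNA. Points are tumors and bars the mean and SD of 4 or 5 tumors. The gray dashes in the *Hc* panel are the level that 3 fragments give in each library, which 3 of 18 tumors exceed. *C5ar1* lies higher in NSG than in Balb/c ATRX CT tumors, and *C2* and *Serping1* spread widely in NSG mice.

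All members lie on the minus strand of mm10, and 4 of them on chromosome 17. *C4b* spans chr17:34728380-34743897 with 41 exons, *Cfb* chr17:34856374-34862514 with 18, and *C2* chr17:34862602-34882100 with 18, all within 153.7 kb in the major histocompatibility complex. Only 87 bases separate *Cfb* from *C2*. *C3* lies apart at chr17:57203967-57228136 with 41 exons. *Hc* (chr2:34983331-35061441, 41 exons) and *Serping1* (chr2:84765360-84775429, 8 exons) are on chromosome 2, *C3ar1* (chr6:122847140-122856157, 2 exons) on chromosome 6, and *C5ar1* (chr7:16246743-16259540, 2 to 3 exons) on chromosome 7. *C3* and *Cfb* each overlap 1 annotated miRNA gene on the same strand. Of the windows of 75 nt (the read length) along the *C4b* transcript, 23.5% are also found in its paralog *C4a*, so reads there could be counted for either gene. No other member shared such a window with another gene of the matrix.

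The comparison of ATRX KD with ATRX CT tumors asks how they differed in each host. In Balb/c mice, 0 of the 7 members tested by limma were called, that is, passed an adjusted p under 0.05 with a fold change of at least 2, and 0 had an unadjusted p under 0.05. Of all 14701 genes tested, 0.0068% were called, 4.14% had an unadjusted p under 0.05, and 3.18% did not overlap between the groups, as against 0 members. In NSG tumors 0 of 7 members were called for ATRX KD against CT, against 0.464% of 14654 genes. *C3ar1* and *C5ar1*, 2 of the 7, had an unadjusted p under 0.05, as did 26.3% of all genes. Between hosts, 0 of 7 members were called in ATRX CT tumors (1.43% of 14828 genes) and 0 of 7 in ATRX KD tumors (1.39% of 14669 genes). At an unadjusted p under 0.05 there were 1 member (*C5ar1*) and 2 members (*C4b* and *C5ar1*), against 19.3% and 16.4% of all genes. For the difference of the ATRX KD effect between hosts, 0 of 7 members and 0% of 14803 genes were called, and 0 members against 10.3% of genes had an unadjusted p under 0.05. *Hc* was under the filter of a mean of 0.1 FPKM in each comparison.

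The median log2 difference of the 7 members was −0.06 for ATRX KD against CT in Balb/c mice and −0.31 in NSG mice, against −0.0032 and −0.0014 over all genes tested. For Balb/c against NSG it was −0.32 in ATRX CT and −0.13 in ATRX KD tumors, against 0.0084 and −0.016 over all genes. The host medians were not stable. With library weights, the median in ATRX CT tumors turned to 0.15, with 5 of 7 members higher in Balb/c mice. Without NSG mouse 3 it turned to 0.021. Library weights, used with a robust prior, count a tumor less the further it lies from its own group, and rest on no separate measure of quality. In ATRX KD tumors single omissions gave −0.45 to −0.032 and library weights −0.015. The NSG median for the shRNA was −0.16 with library weights, and the Balb/c median turned to 0.055 without ATRX CT mouse 43 and to 0.089 without ATRX KD mouse 59. The comparisons within a host share tumors with those between hosts, so these medians are not independent of each other.

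**Figure D2:**
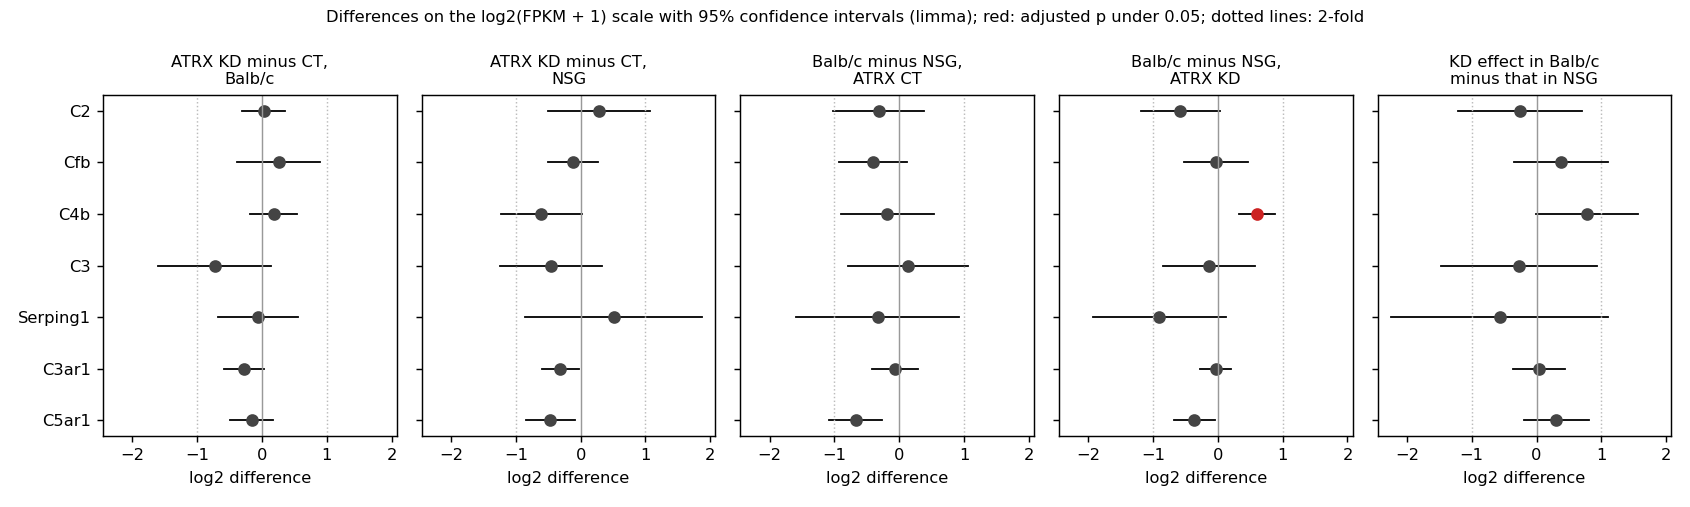
Log2 difference of each of the 7 tested members (points) with its 95% confidence interval from limma (lines), on the log2 (FPKM + 1) scale, for ATRX KD minus CT in each host, Balb/c minus NSG for each shRNA, and the difference of the KD effect between hosts. Dotted lines mark a 2-fold change. *C4b* in ATRX KD tumors is the one red point, with an adjusted p under 0.05, and lies short of the 2-fold line.

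*C2*, the protease of the classical pathway enzyme, was low in most tumors. In Balb/c mice it was at 1.21, 1.21, 0.948, and 0.943 FPKM in ATRX CT and at 1.55, 1.28, 0.609, and 1.11 in ATRX KD tumors. NSG tumors held 0.757, 2.60, 4.46, 0.770, and 0.895 FPKM in ATRX CT and 0.778, 1.41, 3.02, 2.82, and 3.71 in ATRX KD tumors. Values over 2 FPKM all came from NSG mice, namely ATRX CT mice 2 and 3 and ATRX KD mice 28, 29, and 30. *C2* did not pass the test in any comparison in the unweighted fits, with log2 differences from −0.58 (Balb/c against NSG in ATRX KD tumors, SE 0.28, adjusted p = 0.333) to 0.28 (ATRX KD against CT in NSG mice, SE 0.36, adjusted p = 0.657). With library weights, these became −0.89 (adjusted p = 0.0325) and 0.92 (adjusted p = 0.0126), both under 2-fold on the log2 (FPKM + 1) scale. Between hosts in ATRX CT tumors the same weights turned *C2* from −0.32 to 0.10 and *Serping1* from −0.33 to 0.19.

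*Serping1*, the C1 inhibitor, was high in those same 5 tumors. Its levels in NSG mice were 3.69, 22.4, 35.2, 6.39, and 5.56 FPKM in ATRX CT and 5.71, 7.09, 26.0, 24.5, and 29.2 in ATRX KD tumors. In Balb/c mice it was at 6.67, 14.8, 6.12, and 6.81 FPKM in ATRX CT and at 8.09, 9.51, 5.39, and 8.35 in ATRX KD tumors. The 5 NSG tumors thus held 22.4 to 35.2 FPKM of *Serping1* and 2.60 to 4.46 of *C2*, and the other 13 tumors 3.69 to 14.8 and 0.609 to 1.55. Neither gene separated ATRX KD from CT, since both kinds of NSG tumors had high and low members. The log2 difference of *Serping1* was 0.51 (SE 0.62, adjusted p = 0.642) for ATRX KD against CT in NSG mice and −0.90 (SE 0.46, adjusted p = 0.369) for Balb/c against NSG in ATRX KD tumors. With library weights, which count tumors far from their group less, the first became 1.65 and passed both thresholds (adjusted p = 0.027).

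Across the 18 tumors, after the mean of each group was taken off, *C2* and *Serping1* had a Pearson r of 0.94 and a Spearman rho of 0.93. Within the other 13 tumors their levels had r = 0.64 and rho = 0.79. These are descriptions without a test, and the points share library composition. *C2* and its neighbour *Cfb* had r = 0.33 and rho = 0.44. Of 12180 genes whose mean reached 1 FPKM, those most like *C2* were *Serpina3n* (r = 0.96), *Serping1*, and *Slit3* (r = 0.94). *Serpina3n* and *Slit3* were also the nearest to *Serping1* (r = 0.96 and 0.95). *Serpina3n* encodes a secreted inhibitor of serine proteases and *Slit3* a secreted guidance ligand.

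Markers of muscle and fat were also summed in the same tumors. Summed over 8 genes, skeletal muscle RNA was at 142 and 335 FPKM in NSG ATRX CT mice 2 and 3 and at 3.05, 145, and 443 in NSG ATRX KD mice 28, 29, and 30, against 8.62 to 26.7 in the other 5 NSG tumors and 9.90 to 50.9 in Balb/c tumors. Adipocyte genes summed to 69.0 and 73.5 FPKM in those ATRX CT mice and to 244, 130, and 128 in those ATRX KD mice. The other NSG tumors had 51.8 to 78.6 FPKM of them. Balb/c tumors had 80.8 to 92.0 in ATRX CT and 130 to 225 in ATRX KD. Among NSG ATRX KD tumors, mice 28, 29, and 30 lay above mice 26 and 27 (75.5 and 51.8). NSG ATRX CT mice 2 and 3 lay within the range of the other NSG tumors, so adipocyte sums did not mark all 5 tumors. Muscle RNA was therefore high in 4 of the 5 tumors and lowest of all in the other one, NSG ATRX KD mouse 28, while *C2* (3.02) and *Serping1* (26.0) were high there too. *Cfd*, an alternative pathway gene named after its values were seen, was at 12.5, 8.55, 100.7, 32.5, and 42.7 FPKM in the same 5 tumors. It was at 1.75 to 6.17 FPKM in the other 5 NSG tumors and at 1.66 to 23.5 in Balb/c tumors. The part of muscle or fat tissue in these values was not tested. In bulk tumor RNA, more cells of a type and more RNA per cell cannot be told apart.

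**Figure D3:**
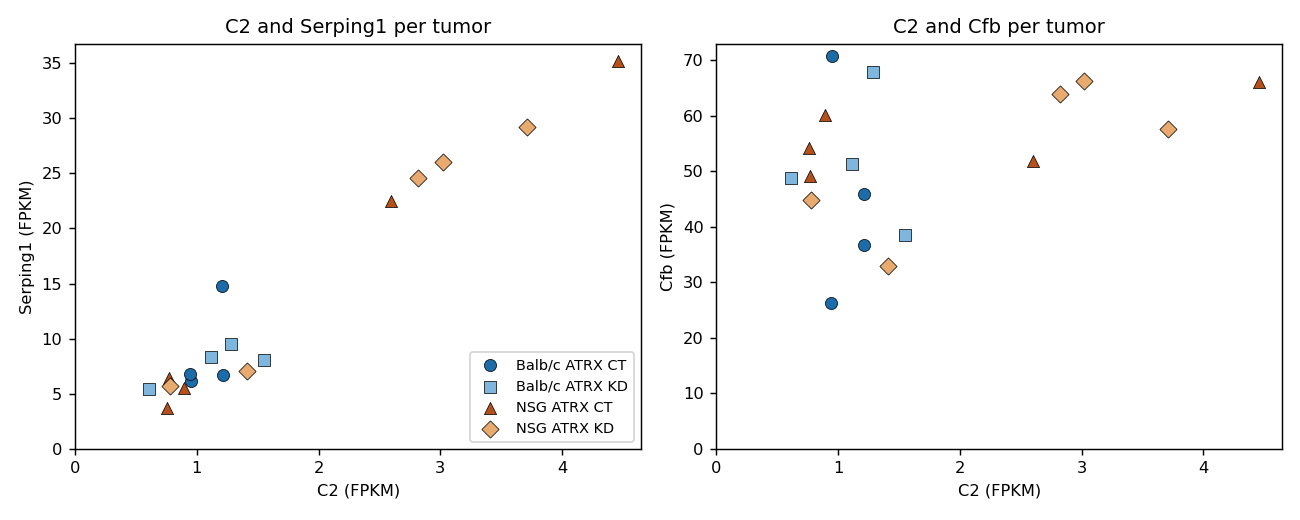
*C2* in FPKM (horizontal axes) against *Serping1* (left) and against its genomic neighbour *Cfb* (right), in FPKM, with 1 point per tumor and colors and shapes for the 4 groups. A set of 5 NSG tumors lies apart at 2.60 to 4.46 FPKM of *C2* and 22.4 to 35.2 of *Serping1*. Along the *Cfb* axis these 5 tumors lie within the range of the others, although NSG ATRX KD mice 28, 29, and 30 lie above mice 26 and 27.

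*Cfb*, the protease of the alternative pathway, was among the most abundant members in all groups. It was at 45.9, 36.7, 70.7, and 26.2 FPKM in Balb/c ATRX CT and at 38.4, 67.8, 48.7, and 51.2 in Balb/c ATRX KD tumors. The NSG values were 54.2, 51.9, 66.0, 49.2, and 60.2 FPKM in ATRX CT and 44.8, 32.9, 66.3, 63.9, and 57.6 in ATRX KD tumors. The groups overlapped in every comparison, and the log2 difference closest to passing was that of Balb/c against NSG in ATRX CT tumors (−0.40, 95% CI −0.92 to 0.12, adjusted p = 0.355). The genes most like *Cfb* across tumors were *Ifit2* (r = 0.91), *Ms4a4c* (r = 0.91), and *Irf7* (r = 0.90). *Ifit2* and *Irf7* are induced by interferon, and *Irf7* encodes a transcription factor of that response. Of a list of 10 genes of the interferon gamma response, 0 were called for ATRX KD against CT in either host, and 1 and 2 were called higher in Balb/c than in NSG mice, in ATRX CT and KD tumors in that order, where 1.43% and 1.39% of all genes were called in either direction.

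*C3*, on which all pathways converge, varied widely within groups. It was at 35.0, 39.8, 21.1, and 22.9 FPKM in Balb/c ATRX CT and at 14.1, 38.7, 15.9, and 9.02 in Balb/c ATRX KD tumors. Of the 4 ATRX KD tumors, 3 were below all ATRX CT tumors and the other, from mouse 58, was within their range. The log2 difference was −0.73 (95% CI −1.61 to 0.15, adjusted p = 0.999). Without single tumors it was −1.12 (without mouse 58) to −0.45 (without mouse 60), and with library weights −0.43. In NSG mice *C3* was at 9.06, 36.7, 48.3, 19.1, and 36.8 FPKM in ATRX CT and at 17.9, 19.8, 15.4, 19.5, and 20.7 in ATRX KD tumors. The ATRX KD tumors lay close together (SD 2.08, against 15.7 in ATRX CT) and within the spread of the controls, with a log2 difference of −0.46 (95% CI −1.24 to 0.32, adjusted p = 0.445). Averaged over both hosts, a contrast added after the values were seen, the difference was −0.60 (95% CI −1.20 to 0.01, adjusted p = 0.294). Nearest to *C3* across tumors were *Stra6* (r = 0.90), a retinol transporter, *Zbtb7c* (r = 0.83), and the chemokine *Cx3cl1* (r = 0.81).

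*C3* is also the member whose start region could be shown, since *C2*, *C4b*, *Cfb*, and *Serping1* are not among the promoters used here and *Hc*, *C3ar1*, and *C5ar1* held no match. The 250 bases before the start of *C3*, *Hc*, *C3ar1*, and *C5ar1* (RefSeq, GRCm38.p6) were searched on both strands for 3 motifs: C/EBP (TTGCNNAA), GAS (TTCNNNGAA), and PU.1 (GAGGAA). The only match was the C/EBP motif in *C3*, 45 bases before the start, a motif that 9.56% of 32851 promoters hold. GAS and PU.1 letters stand in 7.02% and 23.3% of them. The 100 bases before the start (chr17:57228137-57228236, minus strand, read 5′ to 3′) are given with the match in capitals.
C3: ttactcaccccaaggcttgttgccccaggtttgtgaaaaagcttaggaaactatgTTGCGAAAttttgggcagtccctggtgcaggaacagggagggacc
C/EBP factors act in the acute phase response, of which C3 is a known product. A match of letters does not show binding.

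*C4b*, which forms the classical pathway enzyme with C2, was the one member with an adjusted p under 0.05 in a planned comparison. In ATRX KD tumors it was at 35.1, 36.3, 44.9, and 52.7 FPKM in Balb/c and at 27.3, 26.7, 26.0, 26.7, and 29.1 in NSG mice. Every Balb/c value was above every NSG value (exact permutation test, p = 0.0159, the smallest that 4 against 5 tumors allow), as was so in one direction or the other for 8.13% of all genes. The difference was 0.60 on the log2 scale (SE 0.12, 95% CI 0.33 to 0.88, limma adjusted p = 0.0249), which is under 2-fold, and 3.64% of all genes had an adjusted p under 0.05 at any fold. Leaving out single tumors gave 0.49 to 0.68 (adjusted p from 0.0149 to 0.0729), removing the trend with transcript length gave 0.52 (adjusted p = 0.088), and a fit of all 4 groups gave an adjusted p of 0.242.

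In ATRX CT tumors *C4b* was at 40.0, 41.6, 31.6, and 34.4 FPKM in Balb/c and at 33.5, 38.1, 105.7, 29.9, and 31.2 in NSG mice. NSG mouse 3 stood far above all others. With it, the host difference was −0.18 (SE 0.33, adjusted p = 0.761), and without it 0.15 (adjusted p = 0.44). In NSG mice, all ATRX KD tumors were below all ATRX CT tumors, a separation found for 7.5% of all genes. The exact permutation test gave p = 0.00794, the smallest that 5 against 5 tumors allow. The log2 difference was −0.61 (SE 0.29, limma adjusted p = 0.205), and −0.28 without mouse 3 (adjusted p = 0.053). In Balb/c mice ATRX KD minus CT was 0.18 (95% CI −0.18 to 0.54, adjusted p = 0.999). The difference of the ATRX KD effect between hosts was 0.78 (95% CI −0.0025 to 1.57, limma adjusted p = 0.489), and 0.45 without NSG mouse 3. Averaged over ATRX CT and KD tumors, Balb/c minus NSG was 0.21 (adjusted p = 0.49), and 0.37 without that mouse (adjusted p = 0.00881) as well as with library weights (adjusted p = 0.026).

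Nearest to *C4b* across tumors by Pearson r were *Mir1668* (r = 0.92), its paralog *C4a* (r = 0.89), which shares sequence with it, and *Vsir* (r = 0.87). Their Spearman rho was 0.72, 0.90, and 0.54 in that order, so by rank *Mir1668* and *Vsir* were less close than *C4a*. *C4a* was at 1.97 to 3.29 FPKM in Balb/c and 0.316 to 1.16 in NSG tumors. It made up 5.68% to 6.67% of the *C4b* level in Balb/c tumors and 1.09% to 1.85% in NSG tumors, a ratio chosen after the values were seen. The split of shared reads between both genes is not given in the sources used here. Whether *C4a* reads came in part from *C4b* was not tested.

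*Hc*, the gene of C5, was barely detected. NOD mice, from which NSG derive, carry a defective *Hc* allele that yields no C5 protein. *Hc* was at 0.0453, 0.0459, 0.0174, and 0.0185 FPKM in Balb/c ATRX CT tumors and at 0.105, 0.0202, 0.0198, and 0 in the ATRX KD tumors of Balb/c mice. In NSG mice it was at 0.0126, 0.0100, and 0.0159 FPKM in ATRX CT mice 1, 2, and 3 and listed at 0 in the other 2, and in ATRX KD tumors it was at 0.00908 in mouse 26, 0.00732 in mouse 30, and 0 in the other 3. In fragments, these values come to about 31 in the 8 Balb/c libraries together and about 6 in the 10 NSG libraries. The level of 3 fragments, 0.0225 to 0.0374 FPKM, was exceeded in 3 Balb/c tumors and in 0 NSG tumors. Averaged over the shRNA, a contrast added after the values were seen, *Hc* was higher in Balb/c than in NSG mice (p = 0.00113, exact permutation). Among ATRX CT tumors the lowest Balb/c value lay above the highest NSG value (p = 0.0159 by exact permutation, the smallest that 4 against 5 tumors allow). Of the 14828 genes tested in that comparison, 7.57% separated the hosts in either direction. *Hc*, under the filter, was not among those genes. Among ATRX KD tumors the hosts shared a range of values (p = 0.0952 by exact permutation). No fold is given, since most values are at or under 3 fragments, a limit that covers counting error only.

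The anaphylatoxin receptors *C3ar1* and *C5ar1* moved together from tumor to tumor (r = 0.93, rho = 0.94 after group means were taken off). *C3ar1* was at 76.3, 71.0, 74.0, and 56.3 FPKM in Balb/c ATRX CT and at 52.4, 66.8, 53.8, and 54.9 in Balb/c ATRX KD tumors. Values in NSG mice were 59.8, 84.0, 93.3, 70.5, and 60.1 FPKM in ATRX CT and 67.1, 58.0, 54.4, 58.6, and 53.1 in ATRX KD tumors. Hosts overlapped throughout. *C5ar1* was at 32.6, 29.3, 28.2, and 22.4 FPKM in Balb/c ATRX CT and at 22.6, 30.1, 24.2, and 23.4 in Balb/c ATRX KD tumors. Its NSG values were 38.6, 59.9, 55.9, 43.4, and 33.2 FPKM in ATRX CT and 42.0, 30.1, 28.9, 35.6, and 27.3 in ATRX KD tumors. All NSG ATRX CT tumors were above all Balb/c ATRX CT tumors, whereas the hosts overlapped in ATRX KD tumors.

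For *C5ar1*, Balb/c minus NSG was −0.67 in ATRX CT tumors (SE 0.18, 95% CI −1.08 to −0.27, limma adjusted p = 0.0835). The adjusted p was 0.025 in a fit of all 4 groups and 0.0468 with the length trend removed. No Balb/c value reached the NSG values (p = 0.0159 by exact permutation), as for 7.57% of all genes in either direction. In ATRX KD tumors the difference was −0.37 (SE 0.14, 95% CI −0.68 to −0.05, limma adjusted p = 0.226). Averaged over both kinds of cells, a contrast added after the values were seen, it was −0.52 (SE 0.12, 95% CI −0.77 to −0.27, limma adjusted p = 0.00885), with 26.6 FPKM on average in 8 Balb/c and 39.5 in 10 NSG tumors. At any fold, 10.5% of all genes had an adjusted p under 0.05 in that contrast. It gave −0.57 to −0.47 (adjusted p from 0.00353 to 0.0228) when single tumors were left out. The same contrast was −0.05 for *C3ar1* (95% CI −0.25 to 0.15, adjusted p = 0.758).

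For ATRX KD against CT in NSG mice, *C5ar1* differed by −0.47 (95% CI −0.84 to −0.09, adjusted p = 0.112) and *C3ar1* by −0.31 (95% CI −0.60 to −0.02, adjusted p = 0.157). In Balb/c mice the differences were −0.16 (95% CI −0.49 to 0.18) and −0.28 (95% CI −0.59 to 0.04), with adjusted p = 0.999 for each. Averaged over hosts, *C3ar1* differed by −0.30 (95% CI −0.50 to −0.09, adjusted p = 0.113) and *C5ar1* by −0.31 (95% CI −0.56 to −0.06, adjusted p = 0.177). Neither receptor passed the adjusted threshold for the shRNA in these fits, which 2.37% of all genes did in the averaged contrast. With library weights, *C5ar1* in NSG mice (−0.37, adjusted p = 0.046) and *C3ar1* averaged over hosts (−0.24, adjusted p = 0.0431) did. The sum of 8 macrophage genes was 2013 to 2639 FPKM in NSG ATRX CT and 1259 to 2284 in NSG ATRX KD tumors, with overlap. Of the 8 genes, 0 were called, 1 had an adjusted p under 0.05, and 7 had an unadjusted p under 0.05 (26.3% of all genes), with a median log2 difference of −0.46. None of the 8 was at 0 in any group. In Balb/c tumors the sum was 1667 to 2690 in ATRX CT and 1321 to 2469 in ATRX KD. The part of macrophage number in the receptor levels was not tested. As a share of the macrophage sum, *C5ar1* had medians of 1.31% and 1.23% in Balb/c and 1.70% and 2.11% in NSG tumors, with ATRX CT given before KD, and *C3ar1* of 3.17%, 2.81%, 2.98%, and 3.60% in the same order.

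The ratio of *C5ar1* to *C3ar1*, which does not depend on scaling between libraries, was examined after the values were seen. It was 0.428, 0.413, 0.381, and 0.398 in Balb/c ATRX CT tumors and 0.431, 0.451, 0.450, and 0.426 in Balb/c ATRX KD tumors. NSG tumors had ratios of 0.646, 0.713, 0.599, 0.616, and 0.553 in ATRX CT tumors and 0.626, 0.519, 0.532, 0.608, and 0.515 in ATRX KD tumors. All 8 Balb/c tumors were thus below all 10 NSG tumors. Within each kind of cells, exact permutation gave p = 0.0159, the smallest that 4 against 5 tumors allow. Averaged over both, Balb/c minus NSG was −0.48 in log2 ratio, or 0.715-fold (exact permutation test, p = 6.3e-05, the smallest of 15876 arrangements). Of 12029 genes set against *C3ar1* in the same way, 1.02% separated the hosts in either direction and 0.208% with the lower ratio in Balb/c mice. Of the 8 macrophage genes, 0 did.

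The ratio compares transcripts of unlike length. After each library was corrected for its trend along transcript length, it was 0.351 to 0.512 in Balb/c and 0.497 to 0.651 in NSG tumors, so that the hosts overlapped, with a difference of −0.38 in log2 (exact permutation test, p = 0.000189). Between ATRX KD and CT, exact permutation of the ratio gave p = 0.0571 in Balb/c and p = 0.0873 in NSG mice.

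**Figure D4:**
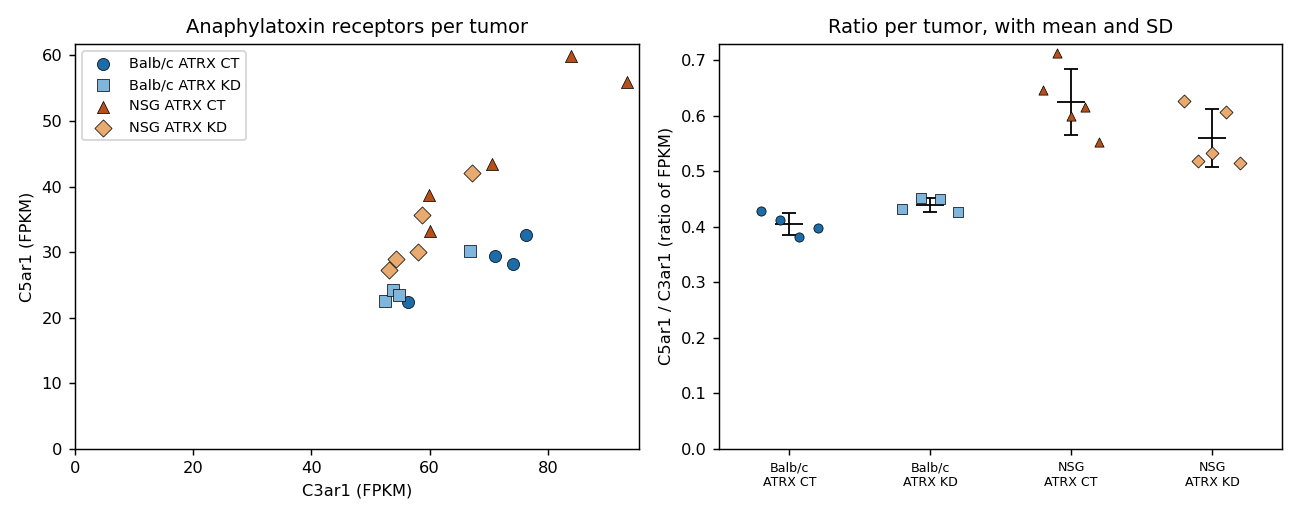
Left, *C5ar1* against *C3ar1* in FPKM with 1 point per tumor, in colors and shapes for the 4 groups. Right, the ratio of *C5ar1* to *C3ar1* per tumor, with mean and SD per group. Balb/c tumors lie at 0.381 to 0.451 and NSG tumors at 0.515 to 0.713 in deposited FPKM.

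Nearest to *C3ar1* across tumors were *Slc16a10* (r = 0.93), an amino acid transporter, *C5ar1* (r = 0.93), and *Apobec1* (r = 0.91). Nearest to *C5ar1* were *C3ar1*, *Fam84b* (r = 0.92), and *Stxbp2* (r = 0.92), which acts in granule release.

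The rest of the pathway comprised 49 listed genes, of which 47 were in the matrix, 27 had a mean of at least 1 FPKM, and 14 were under 0.1 FPKM. For ATRX KD against CT, 0 of 30 tested genes were called in Balb/c mice (1 with an unadjusted p under 0.05, against 4.14% of all genes) and 0 of 33 in NSG mice (13 with an unadjusted p under 0.05, against 26.3%). Between hosts, 2 of 33 were called in ATRX CT and 3 of 32 in ATRX KD tumors, all higher in Balb/c mice, against 1.43% and 1.39% of all genes in either direction. For the difference of the ATRX KD effect it was 0 of 33 (5 with an unadjusted p under 0.05, against 10.3%). By role, those called were *C6* of the terminal pathway (1 of 3 tested in each host comparison), *Cd55* of the membrane regulators (1 of 5 in each), and *C4a* of the initiating components (1 of 12, ATRX KD tumors). Among the alternative pathway genes, soluble regulators, and other receptors, 0 were called.

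*C6*, which joins the membrane attack complex after C5b, was at 3.70 to 7.78 FPKM in Balb/c and 0.660 to 0.800 in NSG ATRX CT tumors (log2 difference 1.68, SE 0.18, adjusted p = 0.000315). In ATRX KD tumors it was at 3.83 to 13.3 against 0.239 to 1.07 FPKM (2.26, SE 0.31, adjusted p = 0.00211). *Cd55*, which speeds the decay of the C3-cleaving enzymes on cell surfaces, was at 4.31 to 8.02 against 0.540 to 1.26 FPKM in ATRX CT tumors (1.89, SE 0.18, adjusted p = 0.0001). In ATRX KD tumors it was at 2.93 to 8.54 against 0.430 to 1.72 FPKM (1.71, SE 0.29, adjusted p = 0.00879). Neither gene overlapped between hosts, as was so for 7.57% of all genes in ATRX CT and 8.13% in ATRX KD tumors. *C4a* was higher in Balb/c than in NSG ATRX KD tumors by 1.43 (SE 0.11, adjusted p = 2.57e-05) and differed by 0.94 in ATRX CT tumors (SE 0.12, adjusted p = 0.00143), which is under 2-fold.

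Some genes had an adjusted p under 0.05 at less than 2-fold on the log2 (FPKM + 1) scale. They are named after their values were seen. That scale understates changes of low genes, so a change in FPKM can exceed 2-fold. An example is *Masp2* in NSG mice, with means of 0.194 FPKM in ATRX KD and 0.673 in ATRX CT tumors. *C5ar2*, the second receptor of C5a, was at 0.980 to 1.55 FPKM in Balb/c and 2.38 to 2.98 in NSG ATRX CT tumors (−0.72, SE 0.11, adjusted p = 0.00422), and at 0.832 to 1.38 against 1.56 to 2.46 FPKM in ATRX KD tumors (−0.48, SE 0.12, adjusted p = 0.0554). Like *C5ar1*, it was lower in Balb/c mice. Its hosts did not overlap in either comparison, as for 7.57% and 8.13% of all genes in ATRX CT and KD tumors. *Masp1*, a protease of the lectin pathway, was higher in Balb/c than in NSG ATRX CT tumors (0.55, SE 0.12, adjusted p = 0.0326), whereas the difference in ATRX KD tumors was −0.17 (SE 0.15, adjusted p = 0.615). For ATRX KD against CT in Balb/c mice, *Masp1* differed by −0.69 (SE 0.15, adjusted p = 0.413), without overlap, as for 3.18% of all genes. Its difference of the ATRX KD effect between hosts was −0.71 (SE 0.18, adjusted p = 0.218). In NSG mice *C1qb* and *C1qc* differed by −0.74 and −0.62 for ATRX KD against CT (adjusted p = 0.0268 and 0.0481), *Cd46* by −0.68 (adjusted p = 0.0148), and *Masp2* by −0.48 (adjusted p = 0.0273). In Balb/c mice these differences were −0.12, −0.13, −0.035, and −0.17 in the same order (adjusted p = 0.999 for each). For the difference of the ATRX KD effect between hosts, the limma adjusted p was 0.484, 0.555, 0.373, and 0.596 in that order. In the NSG comparison 26.3% of all genes had an unadjusted p under 0.05.

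**Figure D5:**
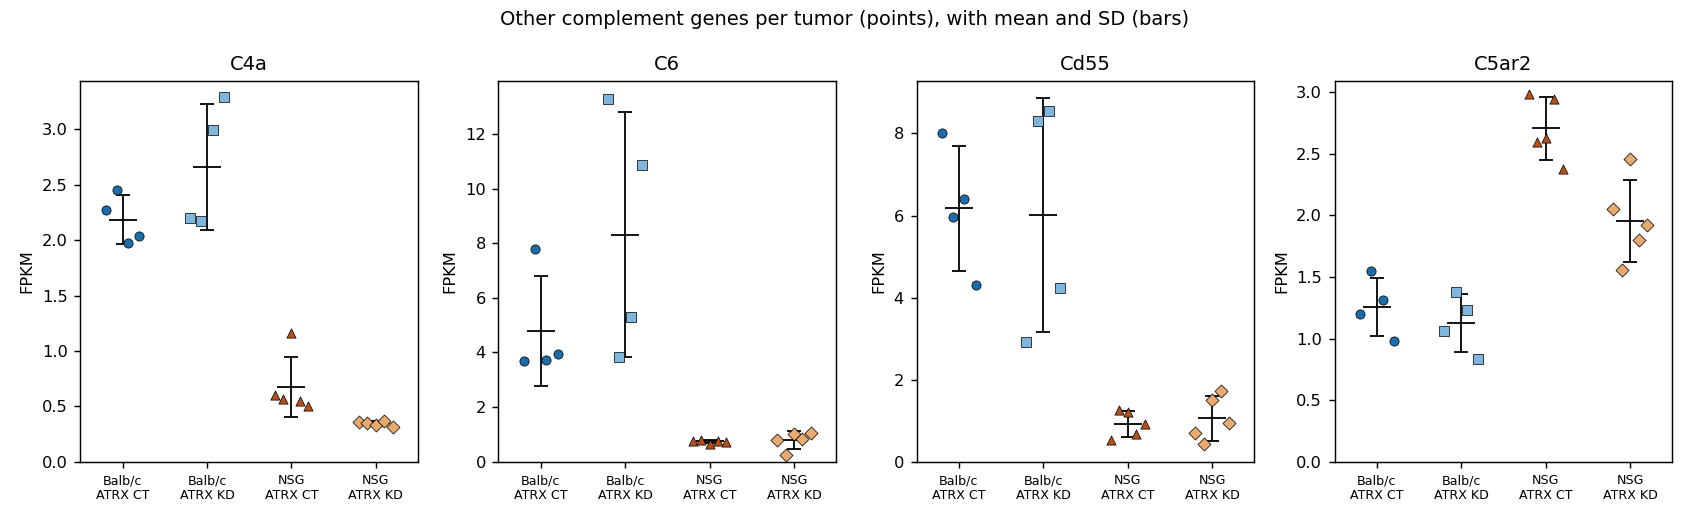
*C4a*, *C6*, *Cd55*, and *C5ar2* in FPKM (vertical axes from 0) per tumor, by host and shRNA, with mean and SD of 4 or 5 tumors. The first 3 are higher in all Balb/c tumors than in all NSG tumors and *C5ar2* is lower. Within ATRX CT and KD tumors, 7.57% and 8.13% of all genes separated the hosts.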

How the data were processed

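RNA of 18 K7M2 tumors was analysed, mapped to 4 groups and mouse numbers by their labels. From ribo-depleted stranded total RNA, the authors mapped read pairs to mm10 (STAR 2.6.0c), removed duplicates, and quantified RefSeq genes with Cufflinks 2.2.1. The deposited unit is log2 (FPKM + 1). That the log is of base 2 follows from length times FPKM, which came to 1.06 to 1.09 of its expected sum (8.09 to 10.8 for a natural log). No normalization between libraries is given. Of 20970 entries, 92 spike-ins (1.44% to 3.04% of each library) were left out. Fragments were estimated from steps between low values (35.5% to 39.9% within 0.1 of a whole fragment, 20% by chance), so whole reads were not recovered, no count test was run, and floors of 3 fragments are approximate.

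Tests used limma 3.58.1 (trend) in R 4.3.3 on the deposited log2 scale, with a pseudocount of 1. Genes whose mean reached 0.1 FPKM in the tumors fitted were kept, and p-values were adjusted over all of them after Benjamini-Hochberg. Each pair of groups was fitted alone, and the difference of effects on all 18 tumors. Called means an adjusted p under 0.05 and at least 2-fold, and folds on this scale understate changes of low genes. The steps were tested on simulated data with planted changes larger than any member difference given here, so recovery of smaller changes was not tested. Exact permutation tests were two-sided, and 4 against 4 tumors cannot give a p under 0.0286. Python 3.11.15 did the rest. For their own comparisons the authors used DESeq.

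The members and lists were chosen with earlier results of these data known. Named genes are all members, other complement genes that were called, and the 3 genes with the highest Pearson r to each member, and 6 complement genes under 2-fold were named outside this rule, after their values were seen. Alternatives were another pseudocount (0.1), filters, scaling, quantile normalization, removal of the trend with transcript length, library weights, no fold threshold, a joint fit, and leaving out tumors. The averaged contrasts and the ratio were added after seeing the data. Each label names a separate animal.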

Additional observations from a re-analysis of the deposited data

Results flagged for a closer look

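In 32 groups of member values, 2 tumors stood far from the rest of their group, where chance gives about 1.6. *C4b* was at 105.7 FPKM in NSG ATRX CT mouse 3, against 29.9 to 38.1 in the other 4 tumors of its group. *Serping1* was at 14.8 FPKM in Balb/c ATRX CT mouse 43, against 6.12 to 6.81 in the other 3.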

How the results depend on the processing

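No paired analysis was possible because the groups compared share no mouse numbers. The counts of called members stayed at 0 under all alternatives run, with these exceptions: 1 (*Serping1*) for ATRX KD against CT in NSG mice with library weights and a robust prior, 1 (*C4b*) for Balb/c against NSG in ATRX KD tumors with no fold threshold, and 1 (*C5ar1*) for the averaged host contrast with no fold threshold. The log2 ratio of *C5ar1* to *C3ar1*, Balb/c minus NSG, was −0.48, and −0.50 to −0.46 without single tumors. Corrected for transcript length it was −0.38.

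Some differences changed sign, *C2* and *Serping1* between hosts in ATRX CT tumors from −0.32 and −0.33, and the cause was not tested. With library weights, Balb/c minus NSG became 0.10 for *C2*, 0.19 for *C4b*, 0.19 for *Serping1*, and 0.15 for *C3ar1* in ATRX CT tumors, 0.43 for *C3* and 0.11 for *C3ar1* in ATRX KD tumors, and 0.12 for *C3ar1* averaged over both. ATRX KD minus CT became −0.081 for *C2* in Balb/c and 0.11 for *Cfb* in NSG mice, and the difference of effects −0.041 for *C3ar1*. The 2 Balb/c tumors with the most keratinocyte RNA were also left out, while NSG tumors with such RNA were kept. Without these 2 tumors, *C2* became −0.0081 (ATRX KD minus CT, Balb/c mice) and *C3ar1* 0.027 (hosts, ATRX CT), 0.0043 (hosts, averaged), and −0.045 (difference of effects). *C3* became 0.14 (hosts, ATRX KD) and *Cfb* −0.045 (ATRX KD minus CT, averaged). Quantile normalization gave hosts in ATRX KD tumors 0.046 for *Cfb* and 0.046 for *C3ar1*, and, averaged, 0.020 for *C3ar1* and −0.020 for *C3*. Removing the length trend gave −0.028 for *C3* between hosts in ATRX CT tumors and −0.12 averaged.

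Leaving out single tumors turned the sign of these differences. ATRX KD minus CT ranged from −0.067 to 0.15 for *C2* and from −0.17 to 0.21 for *Serping1* in Balb/c mice, and from −0.21 to 0.038 for *Cfb* in NSG mice. Between hosts in ATRX CT tumors the ranges were −0.21 to 0.36 for *C3*, −0.30 to 0.15 for *C4b* and −0.65 to 0.084 for *Serping1* (both reversed without NSG mouse 3), and −0.14 to 0.027 for *C3ar1*. In ATRX KD tumors they were −0.52 to 0.14 for *C3*, −0.18 to 0.10 for *Cfb*, and −0.11 to 0.018 for *C3ar1*. The difference of effects ranged from −0.66 to 0.082 for *C3* and from −0.060 to 0.10 for *C3ar1*, the averaged host difference from −0.19 to 0.14 for *C3*, and the averaged ATRX KD effect from −0.042 to 0.19 for *Cfb*. None of these differences had passed the test. Depth limits *Hc* most, whose values rest on 0 to about 13 fragments per library.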
